A study of Mus musculus with 4 samples.

Results

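Cathepsins and their inhibitors were followed in 2 subsets of natural killer (NK) cells of the mouse liver. The 10 genes were chosen by symbol for their role, with earlier results of these data known. They comprise 7 lysosomal cathepsins (Ctsb, Ctsc, Ctsd, Ctsl, Ctss, Ctsw and Ctsz), cystatin F (Cst7) and the Ctla2 inhibitors (Ctla2a and Ctla2b). Each had 1 row among the 21025 gene rows deposited for each library, and 10047 rows were abundant enough to test.

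RNA was taken from NK cells sorted from freshly harvested livers of C57BL/6 mice. TRAIL+ cells (2 libraries) displayed the death ligand TRAIL and lacked CD49b, and CD49b+ cells (2 libraries) displayed CD49b and lacked TRAIL. Cells of both subsets were TCRb-, NK1.1+ and NKp46+. The labels give no age or sex and do not say how many mice went into a library, so each p-value rests on the spread between libraries alone, part or all of which may be technical. In such bulk RNA, fewer cells with a transcript and less of it per cell cannot be told apart.

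Cathepsins are proteases that are made as inactive precursors and work mainly in the acidic lysosome. Most are cysteine proteases of the papain family, whereas cathepsin D is an aspartic protease. In NK cells the cytotoxic granule is itself a modified lysosome, and cathepsin C removes the short propeptide that keeps granzymes inactive. Cystatin F reaches the same compartments and, once trimmed, inhibits cathepsin C. The mouse Ctla2 proteins resemble the propeptide of cathepsin L and inhibit cathepsin L-like enzymes.

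The genes behind the sort followed the labels. Tnfsf10, which encodes TRAIL, stood at 208 and 189 RPKM in TRAIL+ cells and 7.26 and 6.94 RPKM in CD49b+ cells. Itga2, the gene of CD49b, had 5.26 and 1.55 RPKM in TRAIL+ cells and 52.1 and 37.0 RPKM in CD49b+ cells. The NK genes Klrb1c and Ncr1 had group means of 1042 to 1148 RPKM. RPKM is the number of reads per kilobase of gene, scaled to the library's total reads, and the libraries held 3786497 to 4232967 reads. T-cell markers were higher in TRAIL+ cells in 6 of 6 tested members, among them Cd4 and Cd8a, against 4.76% called higher over all genes tested. The list summed to 885 and 1195 RPKM in TRAIL+ libraries, with Cd3g at 936 RPKM, and to 24.4 and 26.1 RPKM in CD49b+ libraries. Cd8a had 347 reads in TRAIL+ cells and 3 reads in CD49b+ cells. Cd5 and Cd6 of the same list averaged under 1 RPKM in both subsets.

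Markers of several other liver cells were higher in the library numbered 1 of each subset. The summed level of 16 Kupffer cell and monocyte markers was 107 and 26.3 RPKM in TRAIL+ replicates 1 and 2, and 138 and 12.5 RPKM in CD49b+ replicates 1 and 2. The lysozyme gene Lyz2 made up most of the sum in both libraries numbered 1, at 81.9 and 122 RPKM, while Marco was at 0 in every library. Of the 16 markers, 15 were above 0 in some library, 7 were tested and 0 were called by limma in either direction, with a median log2 fold change of 0.84. The complement genes of the list leaned to TRAIL+ cells. So did Clec4f, with 9 and 12 reads in TRAIL+ libraries and 2 and 0 reads in CD49b+ libraries. Cd5l did likewise, at 1.32 and 3.23 RPKM in TRAIL+ libraries and 1.04 and 0.498 RPKM in CD49b+ libraries. Lyz2 had the higher mean in CD49b+ cells (65.7 against 45.6 RPKM). Cd163 and Ms4a7 fell short of the filter of 1 RPKM in 2 libraries. Tested only without that filter, both were called lower in TRAIL+ cells. C1qa stood at 5.21 and 4.38 RPKM in TRAIL+ libraries and 1.31 and 0 RPKM in CD49b+ libraries, a difference that did not pass (limma adjusted p = 0.055) but did in 5 of 13 alternative settings. C1qb stood at 4.62 and 3.47 RPKM in TRAIL+ libraries and 3.997 and 0.239 RPKM in CD49b+ libraries, so those groups overlapped. Of 5 tested genes of the dendritic cell and class II list, 1 was called higher in TRAIL+ cells, against 4.76% of all genes tested. It was Xcr1, with 108 reads in TRAIL+ cells and 3 reads in CD49b+ cells. As with the Kupffer cell list, summed markers of dendritic cells and class II, neutrophils, hepatocytes, B cells and endothelial cells were higher in replicate 1 than in replicate 2 of each subset. Those of mast cells and basophils ran the other way, at 8.09 and 10.8 RPKM in TRAIL+ replicates 1 and 2 and 13.93 and 13.94 RPKM in CD49b+ replicates 1 and 2, as did T-cell markers. Results below are therefore given for each library, and the values in the libraries numbered 2 alone are named where they matter.

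**Figure D1:**
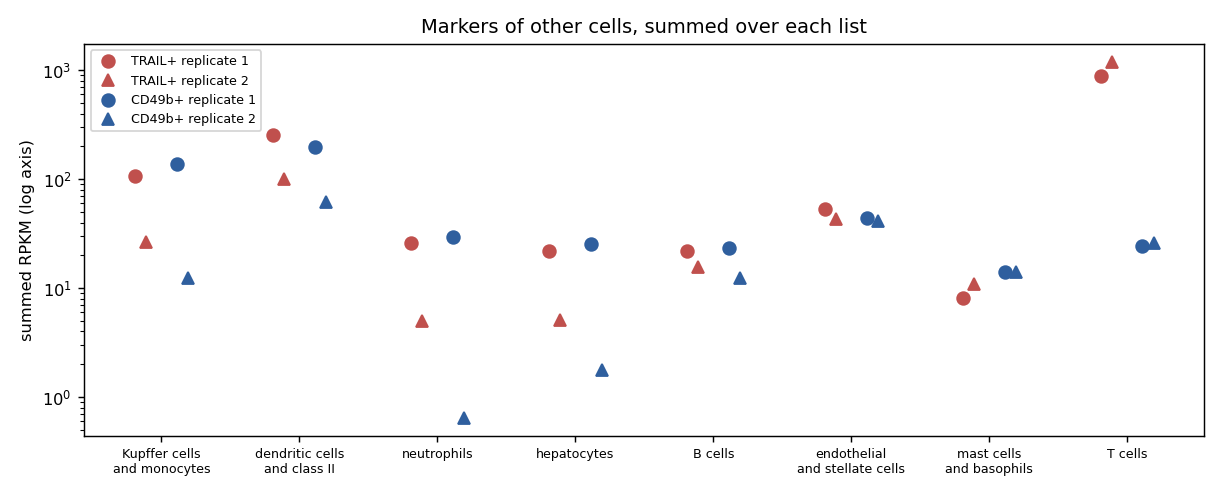
Summed RPKM (log axis) of 8 marker lists of other cells, with TRAIL+ libraries left of CD49b+ libraries and each point 1 library. Replicate 1 lies above replicate 2 in each subset for 6 lists, for example at 21.9 and 5.12 RPKM in TRAIL+ and 25.6 and 1.78 RPKM in CD49b+ cells for hepatocytes, and below it for mast cells and basophils and for T cells.

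The summed RPKM of the 7 cathepsins overlapped between TRAIL+ and CD49b+ cells and was not tested, while single enzymes and inhibitors differed. Ctsb rose in TRAIL+ cells, and Ctss and the inhibitor gene Ctla2a fell. The other 7 members did not pass the test, among them Ctsd, the most abundant. The test was limma on log2(RPKM + 1) across all 10047 genes, with a Benjamini-Hochberg adjusted p threshold of 0.05. Of the 10 members, 1 was called higher and 2 were called lower, against 4.76% and 3.86% of all genes tested. The groups did not overlap in 8 of 10 members, against 46.8% of all genes tested. All 10 members exceeded 1 RPKM in all 4 libraries, so none was lost to the filter. Their median log2 fold change was 0.03, beside 0.0050 over all genes tested.

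The call for Ctss was made in 14 of 14 alternative settings, and those for Ctsb and Ctla2a in 11 of 14 each. Without CD49b+ replicate 1 and without CD49b+ replicate 2, the Ctsb call was lost (limma adjusted p = 0.405 and 0.216). That of Ctla2a was lost likewise (0.0522 and 0.0826). The called members then numbered 0 higher and 1 lower, against 3 higher and 3 lower without TRAIL+ replicate 1. Counts over all genes moved the same way, to 245 higher and 198 lower without CD49b+ replicate 1, 256 higher and 211 lower without CD49b+ replicate 2, and 777 higher and 763 lower without TRAIL+ replicate 1.

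**Figure D2:**
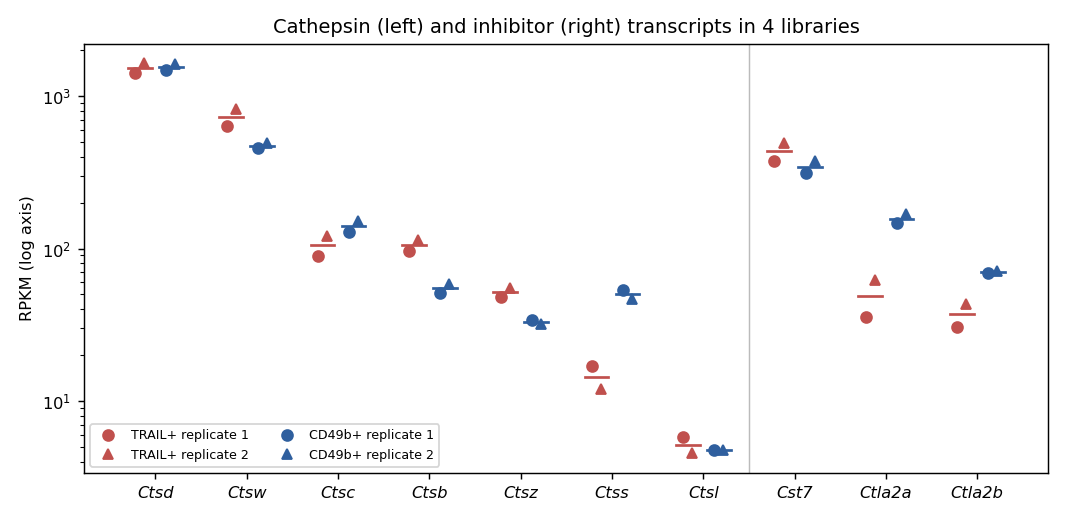
RPKM (log axis) of the 7 cathepsins and 3 inhibitors, with TRAIL+ libraries left of CD49b+ libraries, each point 1 library and each bar the mean of 2 libraries. Ctsb lies higher and Ctss and Ctla2a lie lower in TRAIL+ cells, while Ctsd overlaps at 1410 and 1632 RPKM in TRAIL+ and 1485 and 1630 RPKM in CD49b+ cells.

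The start regions of 4 members are shown for reference. RefSeq windows, on the build GRCm38.p6 and not on the older mm9 used for alignment, cover 250 bases before to 50 bases after an annotated start and were matched for 8 of 10 members, with 9 windows. Ctsb and Ctsw are named only. Ctla2a and Ctla2b are shown because they are neighbouring copies on chromosome 13 that were both lower in TRAIL+ cells, although only Ctla2a passed the test. Capitals mark the longest run shared by both windows, 36 bases. The aligned part of the windows, 278 bases, was 92.1% identical. The Ctla2a window is that of its annotated start at the upstream position, chr13:60936576-60936875 on the minus strand, and the Ctla2b window is chr13:60897398-60897697 on the minus strand.
Ctla2a: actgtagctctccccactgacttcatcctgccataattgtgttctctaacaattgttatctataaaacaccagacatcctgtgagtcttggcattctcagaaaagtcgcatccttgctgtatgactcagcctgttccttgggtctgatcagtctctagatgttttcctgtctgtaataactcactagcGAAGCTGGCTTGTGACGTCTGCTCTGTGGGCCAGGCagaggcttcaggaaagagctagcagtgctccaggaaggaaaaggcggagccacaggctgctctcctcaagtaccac
Ctla2b: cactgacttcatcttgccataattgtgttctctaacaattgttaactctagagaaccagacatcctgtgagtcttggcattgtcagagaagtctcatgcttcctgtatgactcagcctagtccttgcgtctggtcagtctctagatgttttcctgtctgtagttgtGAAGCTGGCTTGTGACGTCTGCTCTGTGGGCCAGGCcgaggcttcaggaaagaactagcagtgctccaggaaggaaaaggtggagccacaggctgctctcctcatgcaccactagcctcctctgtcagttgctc

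The windows of Ctss and Ctsd are shown because Ctss had the largest fall on the log2 scale of the 10 members and Ctsd the highest level. Both strands of each window were searched for CACGTG, the core of the site bound by lysosomal regulators of the TFE family, and for GAAANNGAAA, the core of sites bound by interferon regulatory factors. The motifs can share a base at their ends, no window of a member held both, and they were chosen with the values known. CACGTG occurred in 7.15% of 32851 windows of all genes and GAAANNGAAA in 3.44%. Capitals mark the matches. Ctss lies at chr3:95526536-95526835 on the plus strand and Ctsd at chr7:142387778-142388077 on the minus strand.
Ctss: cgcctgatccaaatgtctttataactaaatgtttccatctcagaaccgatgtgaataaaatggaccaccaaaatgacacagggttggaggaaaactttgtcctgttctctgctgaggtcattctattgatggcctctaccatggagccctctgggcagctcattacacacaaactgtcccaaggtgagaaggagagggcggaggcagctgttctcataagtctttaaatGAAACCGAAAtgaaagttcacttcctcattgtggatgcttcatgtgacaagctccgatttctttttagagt
Ctsd: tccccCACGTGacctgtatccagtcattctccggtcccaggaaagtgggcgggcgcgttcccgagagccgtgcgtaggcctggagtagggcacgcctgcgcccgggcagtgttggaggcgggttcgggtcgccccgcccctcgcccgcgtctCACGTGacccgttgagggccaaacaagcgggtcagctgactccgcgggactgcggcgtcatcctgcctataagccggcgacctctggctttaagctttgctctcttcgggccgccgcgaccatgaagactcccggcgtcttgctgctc
The Ctsd window held CACGTG 2 times and the Ctsl window 1 time, and GAAANNGAAA occurred 1 time, in the Ctss window. A match describes the sequence and shows no binding.

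Of the cathepsins that act on proteins taken up or presented by a cell, Ctss showed the largest difference. Cathepsin S cleaves the class II invariant chain in antigen-presenting cells. Ctss stood at 16.9 and 12.0 RPKM in TRAIL+ libraries, on 94 and 62 reads, and at 53.6 and 47.0 RPKM in CD49b+ libraries, on 309 and 252 reads. Every TRAIL+ library lay below every CD49b+ library. Ctss fell 3.47-fold in TRAIL+ cells (log2 difference -1.74 ± 0.21, SE, limma adjusted p = 0.00819).

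Ctss is abundant in macrophages, and within each subset it was higher in replicate 1, the library with more Kupffer cell and monocyte markers. Between the libraries numbered 2, where the summed markers were 26.3 RPKM in TRAIL+ and 12.5 RPKM in CD49b+ cells, Ctss was 3.91-fold lower in TRAIL+ cells. Between those numbered 1, where the sums were 107 and 138 RPKM, it was 3.16-fold lower. Cd74, the invariant chain, stood at 109 and 39.5 RPKM in TRAIL+ cells and at 81.0 and 28.6 RPKM in CD49b+ cells. These groups overlapped, and each library numbered 1 was above the one numbered 2. The part of other cells in the Ctss difference was not tested.

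Ctsb rose in TRAIL+ cells. Cathepsin B is a broadly expressed enzyme that cleaves both within proteins and at their carboxyl end. It stood at 96.6 and 115 RPKM in TRAIL+ libraries, on 1868 and 2059 reads, and at 50.9 and 58.7 RPKM in CD49b+ libraries, on 1023 and 1097 reads. The groups did not overlap. Ctsb rose 1.93-fold (log2 difference 0.93 ± 0.18, SE, limma adjusted p = 0.0326), and the ratio was 1.90 between the libraries numbered 1 and 1.95 between those numbered 2. Within each subset Ctsb was lower in replicate 1, the library with more Kupffer cell and monocyte markers. Some of those markers leaned to TRAIL+ cells, such as C1qa, and others to CD49b+ cells, such as Lyz2. The part of other cells in the Ctsb difference was not tested.

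Ctsz and Ctsw were also higher in both TRAIL+ libraries, but neither passed the test. Cathepsin Z is a carboxypeptidase, and its gene stood at 47.9 and 55.1 RPKM in TRAIL+ cells and 33.9 and 32.0 RPKM in CD49b+ cells. The log2 difference was 0.63 ± 0.16 (SE, 95% interval 0.22 to 1.03, limma adjusted p = 0.0857). Ctsw encodes a papain-family member found mainly in NK cells and cytotoxic T cells, whose substrates are poorly known. It stood at 634 and 826 RPKM in TRAIL+ cells and 453 and 493 RPKM in CD49b+ cells. Here the log2 difference was 0.61 ± 0.22 (SE, 95% interval 0.05 to 1.17, limma adjusted p = 0.208). Both passed after a correction for gene length (limma adjusted p = 0.0416 for Ctsz and 0.0203 for Ctsw). Of 14 alternative settings, however, only 3 called Ctsz and 4 called Ctsw. With 1 library left out, the log2 difference ran from 0.53 to 0.73 for Ctsz and from 0.42 to 0.80 for Ctsw.

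Ctsc, which encodes the enzyme that activates granzymes, had lower values in both TRAIL+ libraries. It stood at 89.3 and 120 RPKM in TRAIL+ cells and 129 and 152 RPKM in CD49b+ cells. The groups lay next to each other without overlap, and the log2 fold change of -0.43 ± 0.21 did not pass (SE, 95% interval -0.96 to 0.10, limma adjusted p = 0.362).

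Ctsd and Ctsl overlapped between the subsets. Cathepsin D is the main aspartic protease of lysosomes, and its gene had 11266 to 12583 reads per library. Ctsd averaged 1521 ± 158 RPKM in TRAIL+ cells and 1557 ± 103 RPKM in CD49b+ cells (SD, n = 2 each). The log2 difference was -0.04 (95% interval -0.66 to 0.59, limma adjusted p = 0.973). Ctsl, which encodes cathepsin L, had only 34 to 47 reads per library. It stood at 5.83 and 4.54 RPKM in TRAIL+ cells and 4.77 and 4.75 RPKM in CD49b+ cells. The log2 difference was 0.09 (95% interval -0.45 to 0.63, limma adjusted p = 0.895), so neither gene was shown to be equal between the subsets.

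Among the inhibitors, Ctla2a fell. It stood at 35.6 and 62.5 RPKM in TRAIL+ libraries, on 203 and 331 reads, and at 147 and 168 RPKM in CD49b+ libraries, on 870 and 922 reads. All TRAIL+ values lay below all CD49b+ values, and the TRAIL+ libraries differed more from each other than the CD49b+ libraries did. Ctla2a fell 3.20-fold in TRAIL+ cells (log2 difference -1.71 ± 0.29, SE, limma adjusted p = 0.0220). The ratio was 4.12 between the libraries numbered 1 and 2.68 between those numbered 2.

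Its neighbour Ctla2b differed in the same direction and missed the threshold. It stood at 30.5 and 43.6 RPKM in TRAIL+ cells and 69.0 and 70.7 RPKM in CD49b+ cells, again without overlap. The log2 fold change was -0.92 ± 0.21 (SE, 95% interval -1.45 to -0.39, limma adjusted p = 0.0617). The call was made in 5 of 14 alternative settings, among them the gene length correction (limma adjusted p = 0.00488) and quantile normalization (0.0452). With 1 library left out, the log2 fold change ran from -1.17 to -0.67. The start windows of these genes, printed above, are close copies, and the transcripts share part of their sequence. Of all 36-base windows of the longest matching transcript, 11.8% for Ctla2a and 24.3% for Ctla2b occur in another of the 10 members, and 0% did so for the other 8. The sources used here do not say how reads from shared stretches were assigned, and the split between Ctla2a and Ctla2b is uncertain.

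Cst7 was the most abundant inhibitor among the members. It stood at 377 and 491 RPKM in TRAIL+ cells and 313 and 373 RPKM in CD49b+ cells. The lowest TRAIL+ library lay just above the highest CD49b+ library, and the log2 fold change of 0.33 ± 0.22 did not pass (SE, 95% interval -0.22 to 0.89, limma adjusted p = 0.531).

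**Figure D3:**
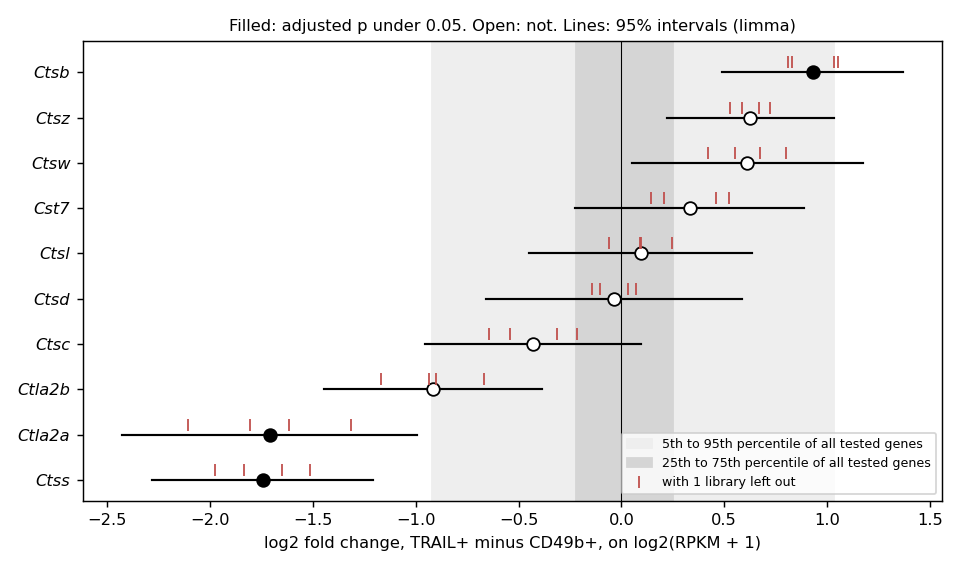
Log2 fold change of each member, TRAIL+ minus CD49b+, on the log2(RPKM + 1) scale, with 95% intervals from limma, filled points for adjusted p under 0.05 and red ticks for fits with 1 library left out. Ctss and Ctla2a lie at -1.74 and -1.71, below the shaded range of all tested genes (5th to 95th percentile, -0.92 to 1.03), and Ctsb at 0.93 lies inside it.

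The order of levels changed below its top. RPKM is scaled to length, so levels of different genes can be ordered. Ctsd, Ctsw and Cst7 held ranks 1 to 3 in both subsets, at means of 1521, 730 and 434 RPKM in TRAIL+ and 1557, 473 and 343 RPKM in CD49b+ cells, with no overlap between neighbours in the order. Ctsl held rank 10 in both. Ctla2a stood at rank 7 in TRAIL+ cells and at rank 4 in CD49b+ cells, and Ctsb at rank 4 in TRAIL+ cells and at rank 7 in CD49b+ cells. Ctsb and Ctsc, Ctsz and Ctla2a, and Ctla2a and Ctla2b overlapped as neighbours in TRAIL+ cells, as did Ctla2a and Ctsc, and Ctsb and Ctss, in CD49b+ cells.

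Summed over the 7 cathepsins, the level was 2300 and 2765 RPKM in TRAIL+ libraries and 2211 and 2417 RPKM in CD49b+ libraries. These ranges overlap. Ctsd made up 61.3% and 59.0% of the sum in TRAIL+ libraries and 67.2% and 67.4% in CD49b+ libraries, and Ctsw 27.6% and 29.9% in TRAIL+ libraries and 20.5% and 20.4% in CD49b+ libraries. The 3 inhibitors summed to 443 and 597 RPKM in TRAIL+ libraries and 528 and 611 RPKM in CD49b+ libraries, which overlap as well.

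Ratios between members within a library cancel its depth. They were chosen with the values known and were not tested. The ratio of Ctsb to Ctss was 5.70 and 9.53 in TRAIL+ libraries and 0.950 and 1.25 in CD49b+ libraries. Cst7 over Ctsc, the inhibitor over the enzyme it is known to inhibit, was 4.22 and 4.08 in TRAIL+ libraries and 2.42 and 2.46 in CD49b+ libraries. Here the libraries of a subset lay close together although neither gene passed the test by itself.

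Ctla2a over Ctla2b was 1.17 and 1.43 in TRAIL+ libraries and 2.13 and 2.37 in CD49b+ libraries, without overlap. Shared stretches make the split between these genes uncertain, and the 95% intervals of their log2 fold changes overlapped. Ctla2a over Ctsl was 6.11 and 13.8 in TRAIL+ libraries and 30.8 and 35.2 in CD49b+ libraries. The low read number of Ctsl limits that ratio. These are ratios of mRNA and say nothing of protein or enzyme activity.

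**Figure D4:**
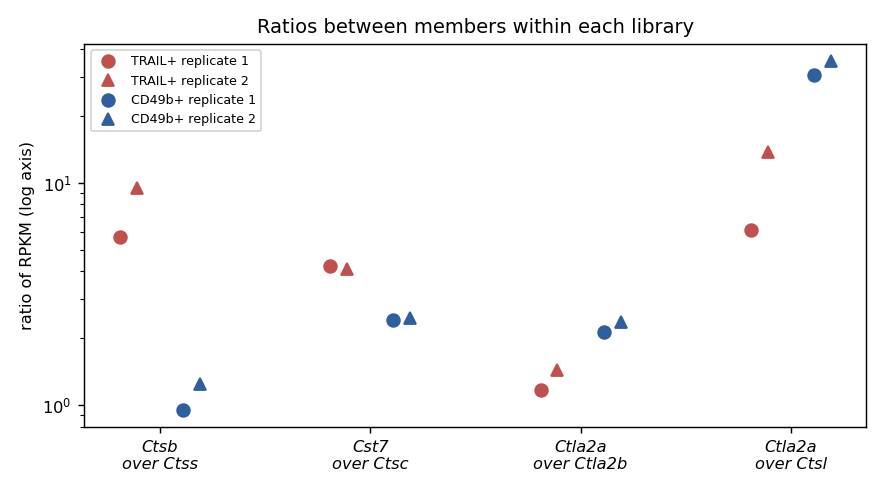
Ratios of RPKM between members within each library (log axis), TRAIL+ left of CD49b+, each point 1 library. Ctsb over Ctss and Cst7 over Ctsc lie higher, and Ctla2a over Ctla2b and Ctla2a over Ctsl lie lower, in both TRAIL+ libraries.

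Other cathepsins showed no called difference. Of 15 listed, 6 were above 0 RPKM in any library and 4 were tested. By limma 0 were called in either direction, against 4.76% called higher and 3.86% called lower over all genes tested. Ctsa, a carboxypeptidase that also stabilises other lysosomal enzymes, came nearest. It stood at 79.3 and 82.3 RPKM in TRAIL+ cells and 52.9 and 56.5 RPKM in CD49b+ cells (log2 difference 0.55 ± 0.15, SE, limma adjusted p = 0.0986). Ctsa passed in 2 of 14 alternative settings, among them the gene length correction. Ctso averaged 29.9 ± 2.78 RPKM in TRAIL+ cells and 24.5 ± 0.43 RPKM in CD49b+ cells (SD, n = 2 each). Ctsg, Ctsj, Ctsm, Ctsq, Ctsr, Cts3, Cts6, Cts7 and Cts8 were listed at 0 in every library.

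Of 8 other inhibitors of cysteine proteases, 3 were tested and 1 rose, against 4.76% called higher over all genes tested. Serpina3g encodes a mouse serpin that inhibits cathepsin B as well as serine proteases. It stood at 581 and 695 RPKM in TRAIL+ cells and 204 and 234 RPKM in CD49b+ cells. The rise was 2.91-fold (log2 difference 1.54 ± 0.20, SE, limma adjusted p = 0.00937). The call was lost without CD49b+ replicate 1 (limma adjusted p = 0.205) and without CD49b+ replicate 2 (0.117). Cst3, which encodes the secreted cystatin C, averaged 206 ± 50.9 RPKM in TRAIL+ cells and 190 ± 7.07 RPKM in CD49b+ cells (SD, n = 2 each), and its groups overlapped.

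Of 34 other lysosomal hydrolases and cofactors tested, 0 rose and 1 fell, against 4.76% called higher and 3.86% called lower over all genes tested, with a median log2 fold change of -0.072. The gene that fell was Arsb, an arylsulfatase gene whose enzyme acts on glycosaminoglycans. It stood at 200.1 and 187 RPKM in TRAIL+ cells and 410 and 421 RPKM in CD49b+ cells, without overlap. Arsb was 2.15-fold lower in TRAIL+ cells (log2 difference -1.10 ± 0.17, SE, limma adjusted p = 0.0164). The call was lost without CD49b+ replicate 1 (limma adjusted p = 0.271) and without CD49b+ replicate 2 (0.286), which left 0 called lower. Without TRAIL+ replicate 1, 2 were called higher and 2 lower. After the gene length correction 1 was called higher and 4 lower, and in the membrane and sorting list 1 higher and 6 lower. The same correction called 722 higher and 600 lower of all 10047 genes tested.

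Of 25 tested genes of the lysosomal membrane, of sorting to lysosomes and of the TFE factors, 1 rose and 3 fell. The shares over all genes tested were 4.76% called higher and 3.86% called lower. The list had a median log2 fold change of -0.08. Gnptab, which encodes a subunit of the enzyme that builds the mannose 6-phosphate tag of lysosomal proteins, stood at 12.9 and 7.88 RPKM in TRAIL+ cells and 37.2 and 30.7 RPKM in CD49b+ cells (log2 fold change -1.65 ± 0.27, SE, limma adjusted p = 0.0192). Npc1, the lysosomal cholesterol transporter gene, was 2.42-fold lower and Lamp1, a marker of granule membranes, 1.75-fold lower. These 3 calls were lost without either CD49b+ library. Cd63, a granule tetraspanin gene, had 64 reads in TRAIL+ cells and 3 reads in CD49b+ cells, or 22.2 times as many after scaling to depth (95% counting interval, exact, 7.25 to 110). It lost its call with voom on reads (adjusted p = 0.0555) and with a pseudocount of 0.1 (limma adjusted p = 0.0600). Tfeb stood at 19.9 and 18.4 RPKM in TRAIL+ cells and 32.7 and 30.2 RPKM in CD49b+ cells and did not pass (limma adjusted p = 0.0667).

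Substrates of cathepsins were called in both directions. Of 7 listed, 6 granule protein genes and the invariant chain gene Cd74, 2 rose and 3 fell. Over all genes tested, 4.76% were called higher and 3.86% lower. The 2 that rose were the granzyme genes Gzmc (log2 difference 6.66) and Gzmb (1.55). Gzmb lost its call without either CD49b+ library, which left 1 higher. Those that fell were Prf1, Gzmk and Gzmm. The calls of Prf1 and Gzmm were made in 14 of 14 alternative settings and that of Gzmk, which had 0 and 6 reads in TRAIL+ libraries and 28 and 38 reads in CD49b+ libraries, in 9 of 14. Gzmk lost its call without CD49b+ replicate 2 (limma adjusted p = 0.0707). Prf1, which encodes perforin, stood at 331 and 308 RPKM in TRAIL+ cells and 1872 and 1802 RPKM in CD49b+ cells.

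**Figure D5:**
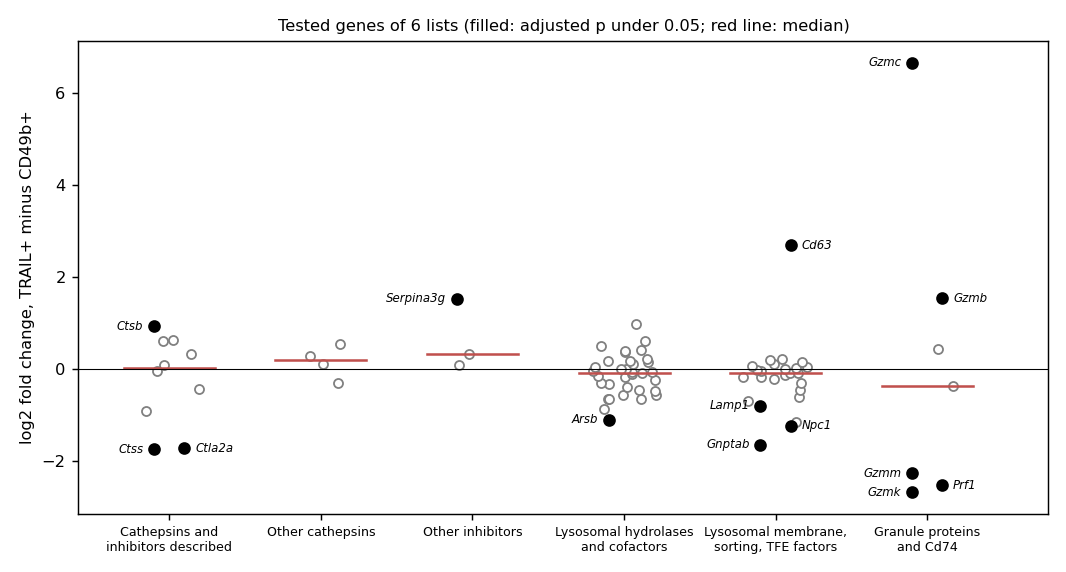
Log2 fold change, TRAIL+ minus CD49b+, of the tested genes in 6 lists, with filled and named points for adjusted p under 0.05 and a red line at the median of each list. The medians of the hydrolases and of the membrane and sorting genes lie at -0.072 and -0.08, while single genes lie apart from them.

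The genes whose pattern was most like that of each called member were found by the Euclidean distance between log2(RPKM + 1) values over the 4 libraries, after centring each gene on its mean. For Ctsb these were Rab8b, at a distance of 0.013, and Rbm38, at 0.025. Rab8b stood at 145 and 170 RPKM in TRAIL+ cells and 76.9 and 88.4 RPKM in CD49b+ cells. For Ctss they were Gnptab, at a distance of 0.17, and Stom, at 0.19. For Ctla2a they were Dcxr, at a distance of 0.045, and Klra6, at 0.13. Klra6 is one of the Ly49 genes, close copies that can share reads. Likeness over 4 libraries is a description of these libraries only.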

How the data were processed

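PolyA RNA from sorted liver NK cells was sequenced in 4 libraries, grouped and numbered by their titles. The deposited values are RPKM, per the file headers. The submitters' processing notes name TopHat 1.4.1 and the build mm9. Which counting tool and annotation were used, and whether strand was, is not given in the sources used here. Reads of overlapping or antisense genes may therefore be mixed.

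Rows were named through RefSeq genes of GRCm38.p6, 20661 of 21025 by accession. The markers Ighm, Ighd and Ly6g matched no row and are not used here. Read numbers and gene lengths were recovered from the smallest steps between RPKM values. Of 13681 rows above 0, 99.97% gave whole reads within a relative tolerance of 1e-06. For 74% of 10858 rows with an annotated length, the length found lay within 10% of it, so reads of other rows are less certain. Counting intervals cover counting error only.

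Genes with at least 1 RPKM in at least 2 libraries were fitted with limma 3.58.1 (R 4.3.3) on log2(RPKM + 1), with a trended prior and the subset as the term. On this scale the change of low genes is understated. Plain folds divide one mean RPKM by the other. Permutation tests were not used, since 2 against 2 cannot reach the threshold. Libraries of a subset differed by more than counting error (chi-square per degree of freedom of 25.2 in TRAIL+ and 7.66 in CD49b+).

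The members, lists and alternatives were chosen with earlier results of these data known. All members, up to 4 called genes of each list by size of change, the most abundant genes of lists with fewer than 2 called, the 2 genes most like each called member, the sort genes and the 2 most abundant markers of each list were open to naming by rule. Some genes of the hydrolase list are not reported here and are left out of its counts. Tfeb, Gzmb, C1qa, Clec4f, Cd5l, Cd163, Ms4a7, Marco, Xcr1, Cd4, Cd8a, Cd5, Cd6 and the other cathepsins listed at 0 were named after their values were seen.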

Additional observations from a re-analysis of the deposited data

How the results depend on the processing

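Other settings for the pseudocount, filter, scaling, prior, model and libraries left the direction of all members the same, except that leaving out 1 library moved the log2 fold change of Ctsd between -0.14 and 0.070 and that of Ctsl between -0.058 and 0.25. Of 139 member and setting pairs, 118 kept both direction and side of the threshold, 6 lost a call and 12 gained one. The other 3 changed direction and stayed uncalled. Members called higher numbered 2 after quantile normalization, 0 with an untrended prior and 3 after the gene length correction, and members called lower numbered 1 with no filter. With 1 library left out, 0 to 3 members were higher and 1 to 3 lower, and over all genes 245 to 777 were higher and 198 to 763 lower. The lone library of a subset is then assumed to vary like the others. After the gene length correction 722 genes were higher and 600 lower. The cause of these shifts was not tested.

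With the replicate number as a block, 1049 genes were higher and 833 lower, and 3 members were higher and 3 lower. The members it added were Ctsz (limma adjusted p = 0.0146), Ctsw (0.0372) and Ctla2b (0.00328). The deviations of same-numbered libraries from their group means correlated at 0.563 across genes. The labels give these libraries only a number in common, and the source of the correlation was not tested. Depth limits Ctsl most, at 34 to 47 reads per library.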
